A study of Homo sapiens with 8 samples.

Results

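The ZNF genes are the large set of human genes numbered under the root symbol ZNF, most of which encode proteins with C2H2 zinc fingers. Members were the rows of the deposited expression table named ZNF with a number and at most 1 closing letter, with a mean normalised read count of 100 or more over the 8 libraries. This gave 348 genes of the 60240 in the table, out of 560 rows with such a name at any level. Expression was measured in HL-60, an established human promyelocytic leukaemia cell line labelled wild type, by 3′ RNA sequencing, which counts 1 tag near the end of each polyadenylated transcript. Cells were seeded in duplicate wells and harvested at 72 h after 1 of 4 treatments, with 2 libraries per treatment. They received the solvent DMSO, 100 nM decitabine daily from day 0 to day 2, a single dose of 2 µM RG3039 on day 0, or decitabine and RG3039 together at those doses (the combination). Decitabine, a nucleoside analogue, enters DNA and traps DNA methyltransferases, and RG3039 inhibits DcpS, the enzyme that clears the cap left over from mRNA decay. The study compared expression between the 4 treatments.

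A C2H2 finger is a short fold held by a zinc ion, and a tandem array of such fingers reads DNA bases, or in some proteins binds RNA or another protein. Many ZNF proteins also carry a KRAB domain, which recruits TRIM28 and through it the histone methyltransferase SETDB1, and such proteins are known for silencing transposable elements and nearby genes by histone H3 lysine 9 methylation. KRAB genes lie in clusters of tandem copies, above all on chromosome 19, and several ZNF promoters are known to be methylated in cancer cells. Other members have separate roles, among them ribosome quality control (ZNF598), mitotic spindle assembly (ZNF207) and promoter activation (ZNF143).

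All 348 members were found in GENCODE 29 on GRCh38, 343 of them as protein-coding genes and 5 as pseudogenes. Chromosome 19 held 172, chromosome 7 held 23 and chromosome 16 held 22. A KRAB A box was found in the open reading frames of 228 members, 145 of them on chromosome 19, and none was found in 115. The number of C2H2 fingers in the same reading frames had a median of 10 and reached 31 in ZNF91. Most members were transcribed at a modest level. The median of the mean normalised counts was 332, with 95 members between 100 and 200 and 47 at 1000 or more, and no member was listed at 0 in any library. The highest was ZNF24, a SCAN-domain protein, with 6985 and 7857 under DMSO, 6168 and 6838 under decitabine, 8220.3 and 8353 under RG3039 and 6868 and 7479.8 under the combination. ZNF106, ZNF207, ZNF638 and ZNF428 followed. At the threshold, ZNF702P, ZNF485 and ZNF620 lay just inside with means of 100.2, 101 and 101, and ZNF558, ZNF114 and ZNF804A just outside with 98.2, 98.0 and 97.9.

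The RefSeq promoter windows (GRCh38.p14) of 302 members were matched by symbol. In the 250 bases before the start they held a median of 17.5 CpG dinucleotides, against 11 over all 35116 windows of the table, and 66.6% of members held 15 or more against 42.9% of all windows. Those windows were not limited to genes with a mean of 100 or more, and no such matched set was counted. The difference is therefore not shown to be particular to the ZNF genes. The motif searched was CG, which reads the same on both strands, and 99.7% of members and 93.9% of all windows held at least 1. Because decitabine acts on CpG methylation, the 250 bases upstream of the RefSeq start are shown for members that the results turn on, 5′ to 3′ on the gene's strand, with each CpG in capitals. The first 3 belong to genes called higher with decitabine and lie at chr4:10457427-10457676 (minus strand), chr19:55624567-55624816 (minus strand) and chr19:57191250-57191499 (plus strand). Methylation was not measured, and a CpG in these letters is a description of the sequence only.
ZNF518B: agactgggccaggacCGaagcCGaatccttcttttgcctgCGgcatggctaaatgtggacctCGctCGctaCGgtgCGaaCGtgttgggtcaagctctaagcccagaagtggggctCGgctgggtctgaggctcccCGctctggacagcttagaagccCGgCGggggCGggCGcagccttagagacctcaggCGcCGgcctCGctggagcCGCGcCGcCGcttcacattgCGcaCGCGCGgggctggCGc
ZNF784: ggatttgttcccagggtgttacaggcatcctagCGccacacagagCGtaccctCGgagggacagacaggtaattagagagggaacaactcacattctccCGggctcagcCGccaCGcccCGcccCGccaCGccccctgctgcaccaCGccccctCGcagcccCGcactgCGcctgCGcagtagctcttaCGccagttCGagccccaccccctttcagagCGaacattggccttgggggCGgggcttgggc
ZNF264: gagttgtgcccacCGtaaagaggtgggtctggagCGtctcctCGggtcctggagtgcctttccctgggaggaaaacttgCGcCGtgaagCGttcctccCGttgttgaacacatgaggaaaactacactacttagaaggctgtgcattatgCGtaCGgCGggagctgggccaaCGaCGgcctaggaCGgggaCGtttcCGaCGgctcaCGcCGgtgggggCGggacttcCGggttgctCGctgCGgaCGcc

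The next 3 belong to the genes that fell most with RG3039, at chr20:18288277-18288526 (plus strand), chr20:25696854-25697103 (minus strand) and chr1:33256242-33256491 (plus strand). They held 18, 25 and 44 CpG dinucleotides, and the 3 above held 26, 18 and 23, so both sets lay at or above the median of the members. The G and C content ran from 61.2% in ZNF133 to 86.8% in ZNF362. The RefSeq starts used for these windows are not the gene bounds given elsewhere from GENCODE. By the GENCODE bounds, 244 of the 250 bases of the ZNF133 window and 35 of those of the ZNF784 window lie inside the gene, and 0 of those of the other 4.
ZNF133: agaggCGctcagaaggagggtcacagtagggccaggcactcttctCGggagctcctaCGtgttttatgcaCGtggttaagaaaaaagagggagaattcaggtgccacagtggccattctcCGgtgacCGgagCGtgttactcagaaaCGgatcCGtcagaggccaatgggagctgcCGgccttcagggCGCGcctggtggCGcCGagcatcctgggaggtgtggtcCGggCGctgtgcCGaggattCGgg
ZNF337: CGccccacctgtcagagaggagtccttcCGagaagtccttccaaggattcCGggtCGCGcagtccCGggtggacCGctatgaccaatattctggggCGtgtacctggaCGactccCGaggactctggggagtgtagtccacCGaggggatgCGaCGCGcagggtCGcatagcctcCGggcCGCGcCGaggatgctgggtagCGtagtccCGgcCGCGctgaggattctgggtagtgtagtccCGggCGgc
ZNF362: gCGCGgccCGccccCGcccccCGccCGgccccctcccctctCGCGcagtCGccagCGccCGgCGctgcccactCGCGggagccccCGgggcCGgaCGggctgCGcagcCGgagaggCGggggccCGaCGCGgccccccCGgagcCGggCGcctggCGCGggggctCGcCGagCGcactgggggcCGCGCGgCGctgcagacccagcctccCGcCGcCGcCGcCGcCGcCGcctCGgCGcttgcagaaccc

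Over all libraries the estimated depth was between 20700000 and 40900000 reads, and 17534 genes with a mean normalised count of at least 10 were tested. Promyelocyte markers (8 genes, led by MPO) summed to between 166556 and 209706 normalised counts in the DMSO and decitabine libraries, to 110152 and 125293 with RG3039 and to 90689.7 and 100989.8 with the combination. The 5 epithelial and stromal markers summed to between 630 and 872 in the DMSO and decitabine libraries, to 1687 and 1904 with RG3039 and to 3160 and 3529 with the combination, nearly all of it from PECAM1, a gene that blood cells also express. KRT5, HBB and MS4A1 were listed at 0 in all 8 libraries, COL1A2 reached at most 1.51, and the 5 lymphoid markers summed to between 30.2 and 360 and were highest with the combination. By limma at an adjusted p under 0.05, 4 of the 8 promyelocyte markers were lower with RG3039 against DMSO and 4 with the combination. Of all genes tested, 3.59% and 12.7% were lower in these comparisons. Of the 4 lymphoid markers tested, 3 were higher with the combination, where 11.4% of all genes were. These marker levels moved with RG3039 and the combination, and their part in the results for the ZNF genes was not tested. Fewer cells of a type and less RNA per cell cannot be told apart in such bulk libraries.

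The members together took 0.679% and 0.647% of the total signal under DMSO, 0.710% and 0.670% under decitabine, 0.731% and 0.715% under RG3039 and 0.710% and 0.711% under the combination. The DMSO and decitabine ranges overlapped, and the highest decitabine library met the lowest combination library at 0.710%. Single genes moved in both directions around a centre near 0. A gene is called here when its adjusted p from limma, with Benjamini-Hochberg adjustment over the 17534 genes, was under 0.05, and only called genes are said to have risen or fallen. Log2 fold changes are on the scale of log2(normalised count + 1), which understates the change of low genes, and are given ± the standard error of the model with n = 2 libraries a group. Because the labels name duplicate wells and no separate cultures, these p-values measure the spread between those wells, which may be technical. Each fit was repeated without each library in turn, on the assumption that a group left with 1 library has the spread of the rest.

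With decitabine against DMSO, 3 members were called higher and 1 lower, where 2.14% of all genes tested were called (1.74% higher and 0.405% lower). The groups overlapped in none of the 4. With 2 libraries a group, a call nearly always comes without overlap, so this is no further support. With RG3039 against DMSO, 13 were called higher and 10 lower, against 8.12% of all genes (4.53% higher and 3.59% lower). With the combination against DMSO, 19 were called higher and 33 lower, against 24.1% of all genes (11.4% higher and 12.7% lower). As shares of the 348 members these are 1.15%, 6.61% and 14.9%. The median log2 fold change of the members was -0.05, -0.06 and -0.07 for decitabine, RG3039 and the combination, beside 0.01, 0.00 and 0.04 over all genes tested. Members and the other 10585 genes with a mean of 100 or more can be set side by side, since the filter was the same. In those other genes the median log2 fold change was -0.07, -0.04 and -0.08, near that of the members. The median size of the log2 fold change was 0.27, 0.29 and 0.45 in members and 0.29, 0.32 and 0.48 in those other genes, and the median standard error was 0.27 in members and 0.22 in the others.

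**Figure D1:**
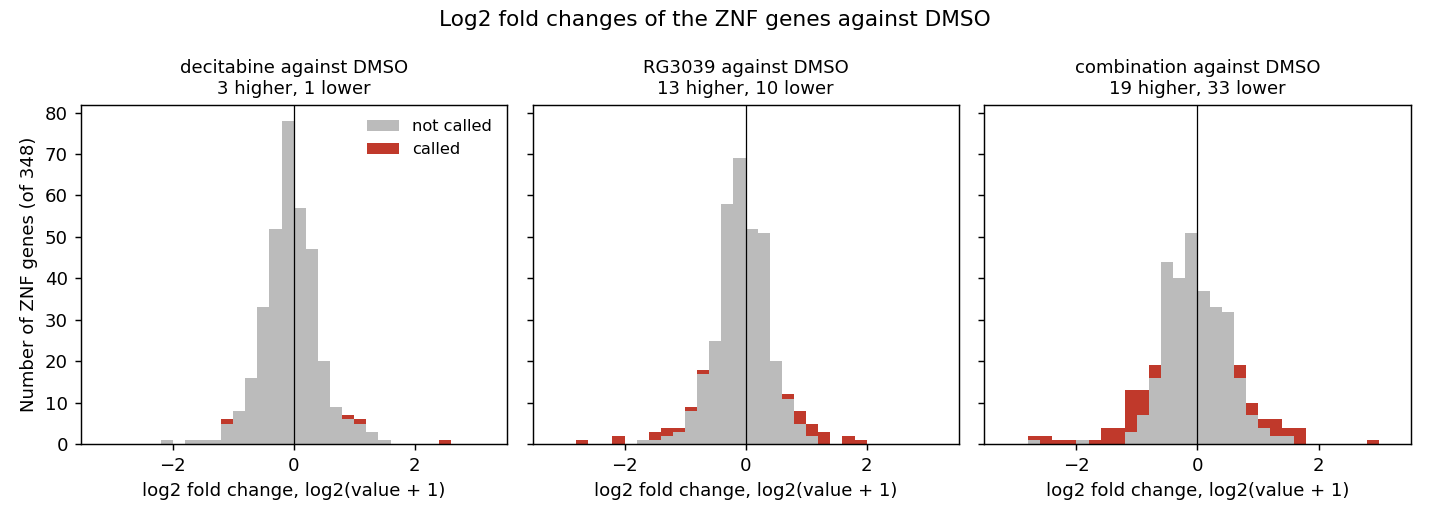
Log2 fold changes of the 348 ZNF genes against DMSO for decitabine, RG3039 and the combination (x axis, on log2(normalised count + 1)), with the number of genes in each bin on the y axis and called genes in red. The distributions centre near 0 (medians -0.05, -0.06 and -0.07), and called genes lie on both sides, 3 higher and 1 lower, 13 and 10, and 19 and 33.

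The share of members called with the combination was nearly level across the range of expression. It was 13.7% of the 95 members with a mean of 100 to 200, 15.3% of 111 with 200 to 400, 15.2% of 79 with 400 to 800 and 15.9% of 63 with 800 or more. Among other genes in the same ranges it was 23.7%, 28.8%, 31.7% and 37.2%. With RG3039 the members' shares were 4.21%, 7.21%, 5.06% and 11.1%, beside 10.6%, 10.7%, 11.7% and 11.5% among the others. These shares describe the genes measured here, and their difference was not tested. In all, 69 members were called in at least 1 of the 6 pairwise comparisons and 279 in none. The like count over all genes was not made. The combination against DMSO alone called 24.1% of all genes and 32.5% of the other genes with a mean of 100 or more. The highest group mean was under 2-fold above the lowest in 273 members (78.4%, against 74.8% of the other genes with a mean of 100 or more).

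**Figure D2:**
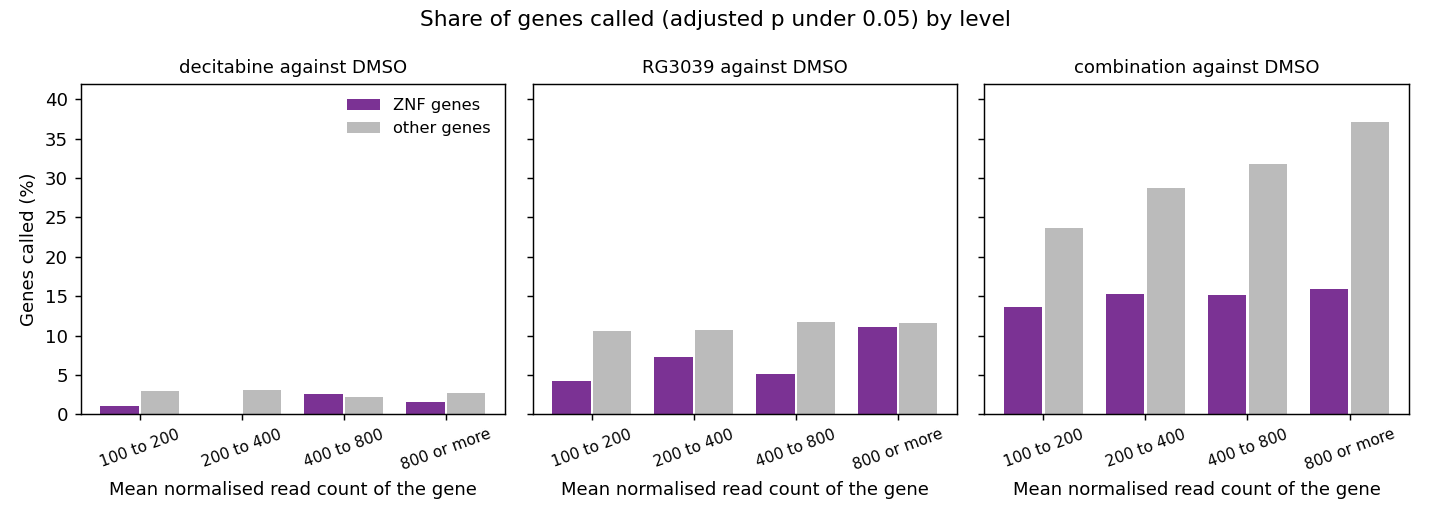
Percent of genes called against DMSO (y axis) in 4 ranges of mean normalised count (x axis), for the ZNF genes and for all other genes tested, by treatment. With the combination the members' bars stand between 13.7% and 15.9% in every range and those of other genes between 23.7% and 37.2%.

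With decitabine alone, ZNF518B, ZNF784 and ZNF264 rose and ZNF704 fell. ZNF518B, a protein reported to bind the histone methyltransferase G9a and Polycomb subunits, lies at chromosome 4, 10439874 to 10457410, minus strand. It had 27.6 and 80.3 under DMSO, 248 and 335 under decitabine, 46.6 and 32.4 under RG3039 and 411 and 298 under the combination. The 4 libraries with decitabine lay at 248 or above and the 4 without it at 80.3 or below. Its log2 fold change was 2.59 ± 0.48 with decitabine (adjusted p = 0.0291, limma), -0.27 ± 0.48 with RG3039 (adjusted p = 0.788) and 2.86 ± 0.48 with the combination (adjusted p = 0.00269). With decitabine the call was lost without DMSO replicate 1, either decitabine library or either combination library (adjusted p = 0.0570 to 0.165), and with the combination the call was kept without each of the 8 libraries in turn (adjusted p up to 0.0305). Against RG3039 alone the combination gave 3.14 ± 0.48 (adjusted p = 0.0145), and the call was lost without either RG3039 library or either combination library (adjusted p = 0.0624 to 0.157).

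ZNF784, a protein with 6 fingers and no KRAB box found (chromosome 19, 55620742 to 55624601, minus strand), rose under all 3 treatments. It had 251 and 204 under DMSO, 500.2 and 493 under decitabine, 531 and 606 under RG3039 and 727 and 750.4 under the combination. All 6 treated libraries were above both DMSO libraries, and both combination libraries were above all others. The log2 fold changes were 1.13 ± 0.20, 1.32 ± 0.20 and 1.70 ± 0.20 (limma, adjusted p = 0.0236, 0.00411 and 0.000417). With decitabine the call was lost without DMSO replicate 2, either decitabine library or either combination library (adjusted p = 0.0588 to 0.120). With RG3039 and with the combination it was kept in all 8 such fits, at adjusted p up to 0.0457 and 0.00723. Its neighbour ZNF865, with 20 fingers, lies on the other strand beside it (chromosome 19, 55605405 to 55617269, plus strand). ZNF865 had 697 and 380.4 under DMSO, 978 and 1112 under decitabine, 1177 and 1288 under RG3039 and 1284 and 1336 under the combination, with all treated libraries again above DMSO. It was called with the combination (1.35 ± 0.26, adjusted p = 0.00511, kept without each library) and with RG3039 (1.26 ± 0.26, adjusted p = 0.0176), but not with decitabine (1.02 ± 0.26, adjusted p = 0.0768). With RG3039 the call was lost without DMSO replicate 2 or either RG3039 library (adjusted p = 0.0579 to 0.112).

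ZNF264, a KRAB protein with 13 fingers (chromosome 19, 57191500 to 57222846, plus strand), had 672 and 699 under DMSO, 1367 and 1177 under decitabine, 1059 and 809 under RG3039 and 1028 and 894 under the combination. Both decitabine libraries were above all 6 others. Its decitabine change of 0.89 ± 0.19 was near the threshold (limma, adjusted p = 0.0478), and the call was lost without either DMSO library, either decitabine library, either RG3039 library or either combination library (adjusted p = 0.0571 to 0.210). Scaling the libraries by TMM also ended the call, at adjusted p = 0.0560.

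ZNF704 (chromosome 8, 80628451 to 80874781, minus strand) was the 1 member called lower with decitabine and did not follow it in the combination. It had 434 and 403 under DMSO, 158 and 214 under decitabine, 426 and 444 under RG3039 and 675 and 589 under the combination. The decitabine libraries lay below all others and the combination libraries above all others, with DMSO and RG3039 close together. The change was -1.18 ± 0.22 with decitabine (limma, adjusted p = 0.0293), and the call was lost without either DMSO library, either decitabine library, either RG3039 library or either combination library (adjusted p = 0.0539 to 0.155). The combination stood 1.78 ± 0.22 above decitabine alone (adjusted p = 0.00234), and the call was kept without each of the 8 libraries in turn (adjusted p up to 0.0323). The number of members called with decitabine was 2 when any one of the DMSO or RG3039 libraries was left out and 0 when any one of the decitabine or combination libraries was. At an unadjusted p under 0.05, limma gave 49 members with decitabine, of 3130 genes in all.

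**Figure D3:**
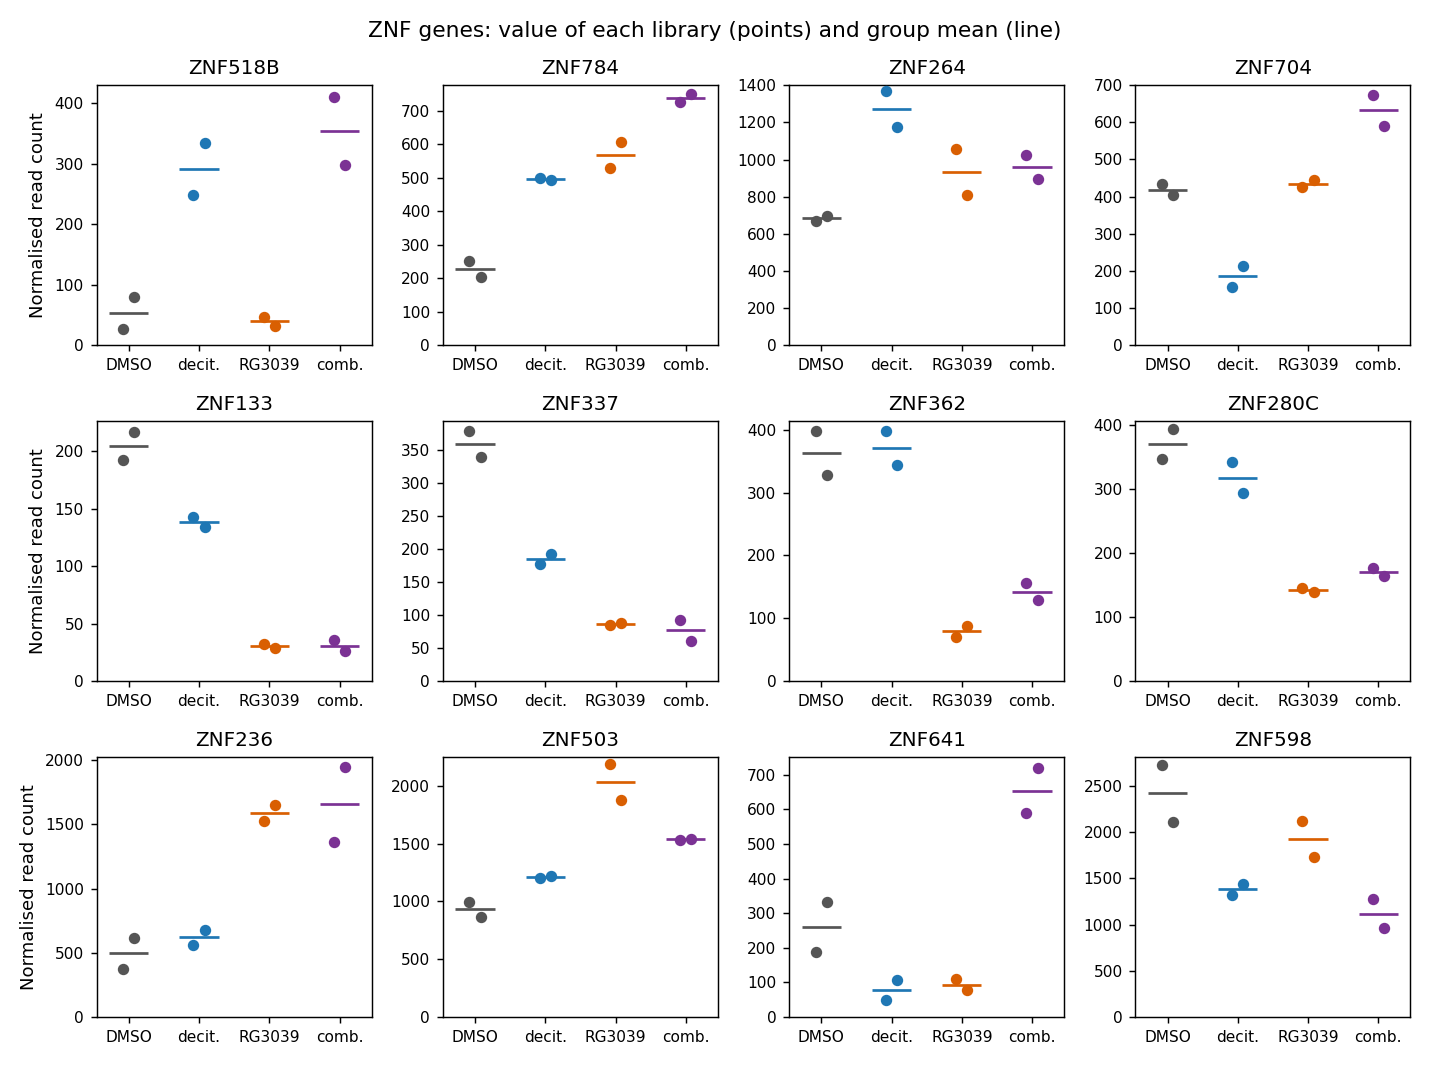
Normalised read count (y axis, from 0) of 12 ZNF genes in each library (points) with the group mean (line), by treatment. ZNF518B is at 248 or more in all 4 libraries with decitabine, ZNF133, ZNF337, ZNF362 and ZNF280C are lowest in the libraries with RG3039, and ZNF641 is highest with the combination.

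With RG3039 alone the largest falls were in ZNF133, ZNF362 and ZNF337, and the calls that held without each library in turn were these 3 and the rises of ZNF784, ZNF236 and ZNF503. ZNF133, a KRAB repressor with 14 fingers (chromosome 20, 18288283 to 18316996, plus strand), had 192 and 217 under DMSO, 143 and 134 under decitabine, 32.6 and 29 under RG3039 and 35.9 and 25.9 under the combination. The 4 libraries with RG3039 lay between 25.9 and 35.9 and the 4 without it between 134 and 217. Its change was -2.69 ± 0.35 with RG3039 (limma, adjusted p = 0.00221) and -2.70 ± 0.35 with the combination (adjusted p = 0.000800), and -0.56 ± 0.35 with decitabine (adjusted p = 0.448).

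ZNF337, a KRAB protein with 19 fingers also on chromosome 20 (chromosome 20, 25674215 to 25696841, minus strand), had 379 and 339.6 under DMSO, 178 and 192 under decitabine, 84.7 and 88.3 under RG3039 and 93.2 and 61.1 under the combination. The decitabine libraries lay between the DMSO libraries and the 4 with RG3039, and no groups overlapped except RG3039 and the combination. Its change was -2.04 ± 0.30 with RG3039 and -2.23 ± 0.30 with the combination (limma, adjusted p = 0.00358 and 0.000841), and -0.95 ± 0.30 with decitabine (adjusted p = 0.137). ZNF362, a paralogue of the activator ZNF384 without a KRAB box found (chromosome 1, 33256545 to 33300719, plus strand), had 397 and 328 under DMSO, 398 and 344 under decitabine, 69.9 and 88.3 under RG3039 and 156 and 128 under the combination. Here DMSO and decitabine overlapped and the combination libraries lay above both RG3039 libraries. Its change was -2.18 ± 0.27 with RG3039 and -1.34 ± 0.27 with the combination (adjusted p = 0.00153 and 0.00604, limma), both kept without each library. The combination minus RG3039 was 0.84 ± 0.27 (adjusted p = 0.136).

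Among the rises with RG3039, ZNF236, a protein with 30 fingers, had 372 and 618 under DMSO, 563 and 677 under decitabine, 1526 and 1649.8 under RG3039 and 1365 and 1949 under the combination. The 4 libraries with RG3039 were all at 1365 or more and the others at 677 or less. The change was 1.72 ± 0.26 with RG3039 and 1.76 ± 0.26 with the combination (limma, adjusted p = 0.00463 and 0.00152), both kept without each library. ZNF503, a developmental co-repressor of the family that also holds ZNF703, had 998 and 868 under DMSO, 1205 and 1223 under decitabine, 2189 and 1877 under RG3039 and 1535 and 1545 under the combination. It was highest with RG3039 alone (1.12 ± 0.16, adjusted p = 0.00302, limma), with the combination libraries between RG3039 and decitabine. Its combination change of 0.73 ± 0.16 (adjusted p = 0.00931) was not kept everywhere: the call was lost without DMSO replicate 2 or either combination library (adjusted p = 0.0503 to 0.0594).

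The other RG3039 calls were less stable. ZNF280C (-1.37 ± 0.23, adjusted p = 0.00751, limma) and ZNF720 (-1.28 ± 0.24, adjusted p = 0.0111) fell. ZNF280C had 347 and 394 under DMSO, 342 and 294 under decitabine, 145 and 139.7 under RG3039 and 176 and 164 under the combination, with the 4 libraries given RG3039 below the other 4, and the call was lost without DMSO replicate 2 or RG3039 replicate 2 (adjusted p = 0.0537 to 0.0553). For ZNF720 the call was lost without DMSO replicate 2 or RG3039 replicate 1 (adjusted p = 0.0654 to 0.0852). ZNF470 (1.81 ± 0.37, adjusted p = 0.0177) and ZNF397 (1.63 ± 0.36, adjusted p = 0.0257) rose. For ZNF470 the call was lost without DMSO replicate 2 or RG3039 replicate 1 (adjusted p = 0.111 to 0.120), and for ZNF397 the call was lost without DMSO replicate 1 or RG3039 replicate 1 (adjusted p = 0.113 to 0.160). The rest were ZNF544, ZNF321P, ZNF662, ZNF518A, ZNF467, ZNF414 and ZNF276 among the rises and ZNF786, ZNF706, ZNF343, ZNF839 and ZNF605 among the falls, and each lost its call without at least 3 of the 8 libraries. ZNF414 and ZNF276 were named to complete the count, after their values were seen. The number of members called with RG3039 was 13 without DMSO replicate 1, 9 without DMSO replicate 2, 8 without RG3039 replicate 1, 10 without RG3039 replicate 2 and 15 without combination replicate 2.

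The combination gave the most calls, 19 members higher and 33 lower. The groups overlapped in none of the 52, which a call nearly ensures with 2 libraries a group. Their rises had a median of 1.26 (0.66 to 2.86) and their falls a median of -1.15 (-2.70 to -0.64). Of the 52, 17 kept the call without each library: ZNF784, ZNF236, ZNF518B, ZNF467, ZNF321P, ZNF106 and ZNF865 among the rises, and ZNF133, ZNF337, ZNF706, ZNF330, ZNF667, ZNF598, ZNF618, ZNF746, ZNF362 and ZNF121 among the falls. ZNF330, ZNF667, ZNF618 and ZNF121 were named here after their values were seen. The number called was 23 (11 higher and 12 lower) without combination replicate 1 and 33 (10 higher and 23 lower) without combination replicate 2.

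**Figure D4:**
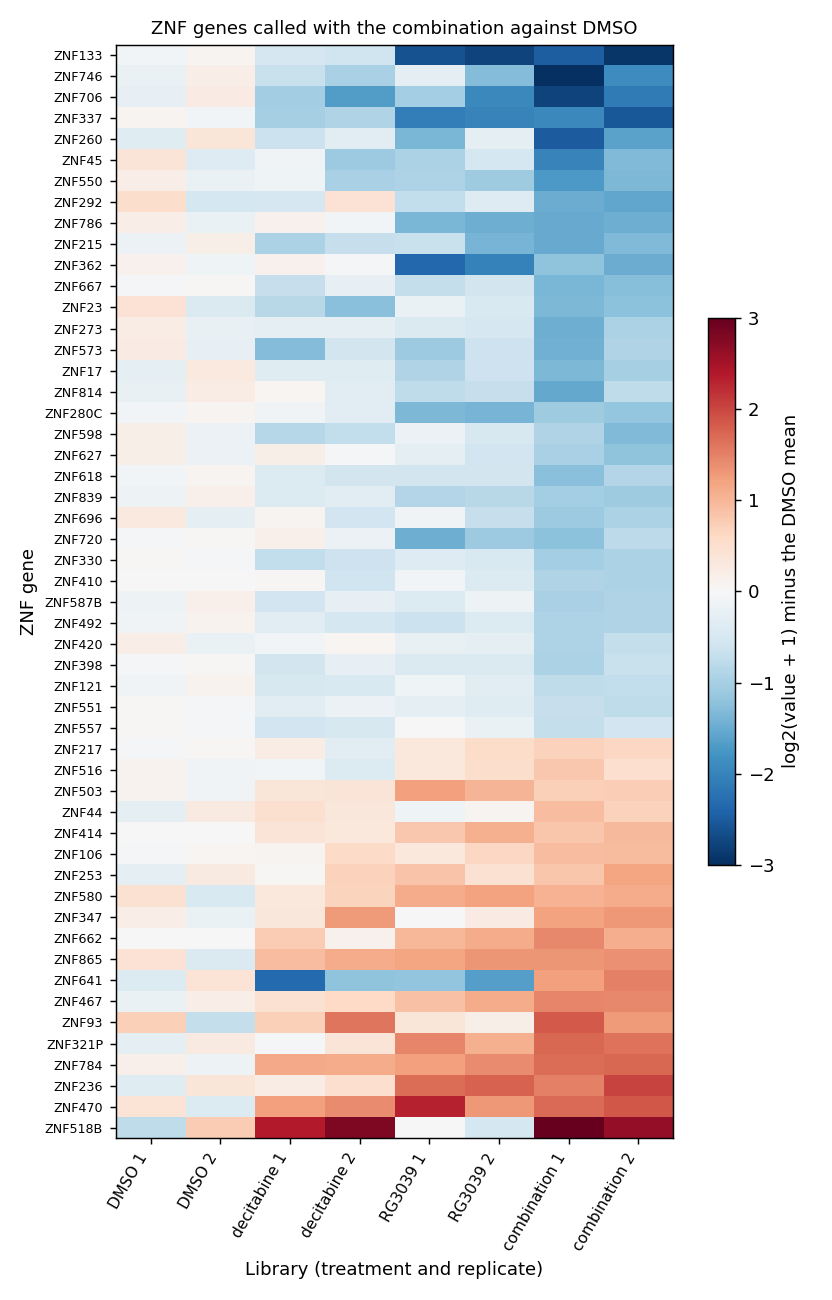
The 52 ZNF genes called with the combination against DMSO (rows, ordered by log2 fold change) in each of the 8 libraries (columns), coloured by log2(normalised count + 1) minus the DMSO mean of the gene. The rows run from ZNF133 (-2.70) to ZNF518B (2.86), and ZNF641 is below DMSO with each single drug and above it with the combination.

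The largest fall after ZNF133 was that of ZNF746, also known as PARIS, a KRAB repressor that is a substrate of the ubiquitin ligase parkin. It had 228 and 298 under DMSO, 162 and 133 under decitabine, 211 and 106 under RG3039 and 30.2 and 69.3 under the combination. Both combination libraries were below all others, and the spread within RG3039 was wide. The change was -2.48 ± 0.46 (limma, adjusted p = 0.00429), beside -0.82 ± 0.46 with decitabine (adjusted p = 0.382) and -0.80 ± 0.46 with RG3039 (adjusted p = 0.338). ZNF706, a short protein with 1 finger, had 1694 and 2394 under DMSO, 969 and 627 under decitabine, 999.6 and 529 under RG3039 and 292 and 463 under the combination. All treated libraries were below both DMSO libraries. It fell with the combination (-2.45 ± 0.35, adjusted p = 0.00128) and with RG3039 (-1.47 ± 0.35, adjusted p = 0.0351), and gave -1.37 ± 0.35 with decitabine (adjusted p = 0.0826). With RG3039 the call was lost without either DMSO library or RG3039 replicate 2 (adjusted p = 0.0566 to 0.207).

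ZNF260, ZNF45, ZNF550, ZNF292, ZNF786 and ZNF215 completed the 10 largest falls after ZNF133, ZNF746, ZNF706 and ZNF337. They gave -2.04 ± 0.42, -1.66 ± 0.44, -1.54 ± 0.33, -1.52 ± 0.36, -1.50 ± 0.32 and -1.42 ± 0.33 (limma, adjusted p between 0.00755 and 0.0223). ZNF292, a large DNA-binding protein mutated in neurodevelopmental disorders, had 5245 and 2538 under DMSO, 2554 and 4916 under decitabine, 2202 and 2807 under RG3039 and 1302 and 1240.0 under the combination, and the call was lost without DMSO replicate 1 or either combination library (adjusted p = 0.0646 to 0.0773). For ZNF260 the call was lost without DMSO replicate 2 or combination replicate 1 (adjusted p = 0.0607 to 0.0643). For ZNF45 the call was lost without DMSO replicate 1 or combination replicate 1 (adjusted p = 0.131 to 0.147). For ZNF550 the call was lost without DMSO replicate 1 or combination replicate 1 (adjusted p = 0.0582 to 0.0715). For ZNF786 the call was lost without DMSO replicate 1 or combination replicate 1 (adjusted p = 0.0546 to 0.0586), and for ZNF215 the call was lost without DMSO replicate 2 or combination replicate 1 (adjusted p = 0.0780 to 0.0818).

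Among the rises, ZNF106, an RNA-binding protein and one of the most abundant members, had 3791 and 4171 under DMSO, 4227 and 5881 under decitabine, 4977 and 6091 under RG3039 and 7599.6 and 7659.6 under the combination. Both combination libraries were above all others, and its change was 0.94 ± 0.18 (limma, adjusted p = 0.00497). ZNF467, a regulator of bone and fat cell fate, had 124 and 163 under DMSO, 197 and 214 under decitabine, 261 and 311 under RG3039 and 391 and 389 under the combination. It rose with the combination (1.45 ± 0.24, adjusted p = 0.00272), and all treated libraries were above DMSO. ZNF470 (1.78 ± 0.37, adjusted p = 0.00762) and ZNF662 (1.26 ± 0.26, adjusted p = 0.00700) also rose. For ZNF470 the call was lost without DMSO replicate 2 or combination replicate 2 (adjusted p = 0.0533 to 0.0538), and for ZNF662 the call was lost without combination replicate 1 (adjusted p = 0.0655). ZNF321P rose (1.67 ± 0.29, adjusted p = 0.00337), but 53.4% of the 50-base words in its last 500 bases also occur in transcripts of the overlapping read-through gene ZNF816-ZNF321P and of others, so its level is uncertain.

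ZNF641 lay below DMSO with each single drug and above it with the combination. This KRAB protein with 5 fingers (chromosome 12, 48337180 to 48351414, minus strand) had 188 and 333 under DMSO, 49.2 and 107 under decitabine, 109 and 78.3 under RG3039 and 589 and 719 under the combination. All 4 single-drug libraries were below both DMSO libraries and both combination libraries were above them. The changes against DMSO were -1.77 ± 0.42 with decitabine and -1.43 ± 0.42 with RG3039, neither of them called (limma, adjusted p = 0.0660 and 0.0700). With the combination it was 1.38 ± 0.42 (adjusted p = 0.0395), and the call was lost without DMSO replicate 1, either RG3039 library or either combination library (adjusted p = 0.0508 to 0.203). The combination stood 3.14 ± 0.42 above decitabine (adjusted p = 0.00324), kept without each library, and 2.80 ± 0.42 above RG3039 (adjusted p = 0.0140). Against RG3039 the call was lost without either RG3039 library or either combination library (adjusted p = 0.0610 to 0.112).

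The interaction, which is the combination minus decitabine less RG3039 minus DMSO, measures the departure of the response from the sum of the single responses on the log2 scale. No gene was called for it by limma (0% of the 17534 tested), and 16 members and 1014 genes in all had an unadjusted p under 0.05. ZNF641 had the smallest p of the members, with an interaction of 4.57 ± 0.59 (unadjusted p = 2.08e-05, adjusted p = 0.183, limma). ZNF704 came next, with 1.72 ± 0.31 (adjusted p = 0.505). The fits with TMM or quantile scaling, other filters, other pseudocount, no trend, the replicate number as a block, or any library left out also called 0 members.

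Against decitabine alone, the combination had 8 members higher and 11 lower, where 7.33% of all genes were called (3.94% higher and 3.39% lower). Besides ZNF704 and ZNF641, the rises included ZNF81, ZNF236 and ZNF321P and the falls ZNF133, ZNF43, ZNF10 and ZNF786. Unlike ZNF704 and ZNF641, each of these lost its call in this comparison without at least 2 of the 8 libraries. ZNF43, a KRAB protein of the chromosome 19 cluster that holds ZNF91, had 81.3 and 122 under DMSO, 279 and 222 under decitabine, 61.0 and 78.2 under RG3039 and 64.3 and 76.7 under the combination. The decitabine libraries were above all others. The combination minus decitabine was -1.81 ± 0.34 (limma, adjusted p = 0.0147), and the call was lost without either decitabine library or either combination library (adjusted p = 0.0526 to 0.105). ZNF10, the source of the KRAB domain used in many synthetic repressors, had 92.5 and 101 under DMSO, 202 and 192 under decitabine, 57.2 and 62.0 under RG3039 and 40.9 and 76.8 under the combination, again highest with decitabine alone. Its combination change against decitabine was -1.80 ± 0.37 (adjusted p = 0.0213), and the call was lost without either decitabine library or combination replicate 1 (adjusted p = 0.0847 to 0.139). Against DMSO, neither ZNF43 (1.31 ± 0.34, adjusted p = 0.0849) nor ZNF10 (1.02 ± 0.37, adjusted p = 0.193) was called with decitabine. The members called numbered 3 without decitabine replicate 1, 5 without decitabine replicate 2 and 4 without either combination library.

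Against RG3039 alone, the combination had 2 members higher, ZNF518B and ZNF641, and 0 lower, where 2.28% of all genes were called (1.49% higher and 0.787% lower). At an unadjusted p under 0.05 limma gave 3126 of the 17534 genes tested, and 58 of the 348 members. None was called without RG3039 replicate 2 or either combination library, and 1 other member was called, lower, without RG3039 replicate 1.

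Decitabine and RG3039 were compared directly, with 10 members higher and 7 lower with decitabine, against 4.6% of all genes called (2.67% higher and 1.92% lower). Under quantile scaling the split was 9 higher and 10 lower. ZNF362 (2.22 ± 0.27, adjusted p = 0.00232, limma) was higher with decitabine and ZNF544 (-1.65 ± 0.22, adjusted p = 0.00403) higher with RG3039, and both calls were kept without each library. ZNF544, a KRAB protein whose last 500 bases share 11.3% of their words with other transcripts, had 743 and 789.5 under DMSO, 608 and 454 under decitabine, 1967 and 1391 under RG3039 and 935 and 793 under the combination. The decitabine libraries were the lowest and the RG3039 libraries the highest. ZNF678 had the largest difference after ZNF518B, with 95.5 and 133 under DMSO, 305 and 182 under decitabine, 38.8 and 52.2 under RG3039 and 29.7 and 100.0 under the combination (2.36 ± 0.55, adjusted p = 0.0421). For ZNF678 the call was lost without either DMSO library, either decitabine library or either RG3039 library (adjusted p = 0.0558 to 0.230). The number of members called was 3 without either decitabine library, 4 without RG3039 replicate 1 and 5 without RG3039 replicate 2.

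The calls were then laid out by features of the genes. On chromosome 19, with 172 members, RG3039 gave 6 rises and 0 falls, beside 7 rises and 10 falls among the 176 members elsewhere. With the combination it was 10 rises and 14 falls on chromosome 19, and 9 and 19 elsewhere. As shares called these are 3.49% and 9.66% with RG3039, beside 8.12% of all genes tested (4.53% higher and 3.59% lower). With the combination they are 13.95% and 15.9%, beside 24.1% of all genes tested (11.4% higher and 12.7% lower). Within chromosome 19 the regions were not alike in sign. In the zone from 30 to 40 Mb, 19 of 24 members were below 0 with the combination (median -0.33), 20 of 24 with RG3039 (median -0.27) and 20 of 24 with decitabine (median -0.26). These 3 comparisons share the DMSO libraries. In the combination against RG3039, 12 of these members were above 0 and 12 below. Among all 348 members, 196 were below 0 with the combination, 194 with RG3039 and 197 with decitabine. Of the 17534 genes tested it was 8362, 8794 and 8608, and of the 10585 other genes with a mean of 100 or more 5772, 5693 and 6086. In the zone from 40 to 50 Mb, 13 of 21 members were below 0 with the combination, 15 with RG3039 and 15 with decitabine. In the zone from 50 to 60 Mb, 46 of 80 were above 0 with the combination (median 0.12), beside 152 of all 348 members. In the zone from 20 to 30 Mb, which holds ZNF43 and ZNF91, 16 of 18 members were higher with decitabine than with RG3039 (median 0.38), but only 1 was called. Of all 348 members, 170 were higher with decitabine than with RG3039. Many neighbouring genes in these zones arose as tandem copies and are not independent, and no test was made of these zones.

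Members with a KRAB box (228) gave 3 rises and 6 falls with RG3039, against 9 and 4 among the 115 without one. With the combination they gave 7 rises and 21 falls, against 11 and 12. The median change with the combination was -0.08 with the box and -0.05 without it, and the KRAB members had the larger median standard error (0.29 against 0.22). By number of fingers, the share called with the combination was 23.6% of the 72 members with 0 to 6 fingers, 9.27% of 151 with 7 to 12 and 16.7% of 120 with 13 or more. Over all genes tested it was 24.1%. The set with 0 to 6 fingers had the smallest median size of change (0.39, against 0.42 and 0.48). It also had the smallest median standard error (0.21, against 0.27 and 0.29). By CpG count of the 300-base promoter window, the share called was 10.3% of the 107 members with fewest, 14.6% of 103 in the middle and 20.7% of the 92 with most. The median changes of these 3 sets were -0.04, -0.11 and -0.09. The median sizes of the change, whatever its sign, were 0.47, 0.45 and 0.36, so they did not rise with the share called. The median standard errors were 0.29, 0.25 and 0.26. With decitabine the same sets gave 0, 2 and 1 calls, where 2.14% of all genes tested were called. Members with over 10% of the words in their last 500 bases shared with another gene numbered 60. Of these, 6 (10%) were called with the combination, beside 24.1% of all genes tested. The 6 were ZNF321P, ZNF814, ZNF23, ZNF17, ZNF410 and ZNF580, and their levels are uncertain because reads could be split between copies. Whether reads were counted by strand is not stated in the sources, so reads of overlapping genes on opposite strands cannot be told apart.

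Of 9 genes tested with established roles in RNA handling and translation, 8 of them members, ZNF598 fell with the combination and no other was called in any comparison. With the combination 24.1% of all genes tested were called (12.7% lower). ZNF598, the ubiquitin ligase that marks collided ribosomes, had 2728 and 2114 under DMSO, 1324 and 1443 under decitabine, 2119 and 1733 under RG3039 and 1275 and 961 under the combination. The DMSO and RG3039 libraries overlapped, and the combination libraries were below all others. It fell with the combination (-1.12 ± 0.20, adjusted p = 0.00371, limma), a call kept without each library. With decitabine it gave -0.80 ± 0.20 (adjusted p = 0.0761). The others of this list were ZNF593 and ZNF622, factors in large ribosomal subunit maturation, ZNF207, ZNF638, ZNF830, ZNF326 and ZNF346, and ZNF385A with a mean under 100. The list's median was -0.24, -0.07 and -0.32 for decitabine, RG3039 and the combination. ZNF207, the spindle assembly and splicing factor, had 5103 and 7570.1 under DMSO, 3720.3 and 4777 under decitabine, 5433 and 4711 under RG3039 and 4366 and 4565 under the combination, with a combination change of -0.48 ± 0.20 (adjusted p = 0.120).

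Of 10 genes tested that work in chromatin complexes, 9 of them members, 3 rose with the combination and 0 fell, with a median of 0.65, where 24.1% of all genes were called (11.4% higher). The genes that rose were ZNF518B, ZNF217 and ZNF516. This list, like the other role lists, was chosen with earlier results of these data known, so its count is a description only. ZNF217, an oncogenic partner of the CoREST and CtBP co-repressors, had 771 and 820.0 under DMSO, 927 and 637 under decitabine, 987 and 1161 under RG3039 and 1292 and 1218 under the combination (0.66 ± 0.21, adjusted p = 0.0443, limma). For ZNF217 the call was lost without either DMSO library, either RG3039 library or either combination library (adjusted p = 0.0594 to 0.189). ZNF516, another CtBP partner, had 684 and 588 under DMSO, 597 and 479.8 under decitabine, 796 and 916 under RG3039 and 1108 and 906 under the combination (0.66 ± 0.20, adjusted p = 0.0401). For ZNF516 the call was lost without either DMSO library, either RG3039 library or either combination library (adjusted p = 0.0560 to 0.238). ZNF518A, the paralogue of ZNF518B, had 1993 and 2018 under DMSO, 3043 and 2534 under decitabine, 3266 and 3385 under RG3039 and 2361 and 3267 under the combination. It was called with RG3039 (0.73 ± 0.18, adjusted p = 0.0368) and not with decitabine (0.47 ± 0.18, adjusted p = 0.208). With RG3039 the call was lost without either DMSO library or either RG3039 library (adjusted p = 0.0954 to 0.168). ZNF687, ZNF592 and ZNF644, which form a complex with ZMYND8 or G9a, were not called, with combination changes of 0.62 ± 0.20, 0.18 ± 0.17 and 0.05 ± 0.17 (adjusted p = 0.0532, 0.491 and 0.859).

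Of a list of 9 KRAB proteins, drawn up around the silencing of repeats and imprints, 1 was called with the combination. In that comparison 24.1% of all genes were called (11.4% higher). The 1 called was ZNF93, which represses LINE-1 elements. ZNF93 had 268 and 99.9 under DMSO, 270.0 and 503 under decitabine, 210.3 and 184 under RG3039 and 587 and 400.3 under the combination. The DMSO libraries differed widely, and its change of 1.56 ± 0.46 (limma, adjusted p = 0.0348) was unstable: the call was lost without DMSO replicate 2, either RG3039 library or either combination library (adjusted p = 0.0516 to 0.204). ZNF91, which represses SVA elements, had 634 and 581 under DMSO, 819 and 701 under decitabine, 509 and 594 under RG3039 and 1008 and 739.8 under the combination and was not called (0.51 ± 0.21, adjusted p = 0.108). ZNF274, which binds the 3′ ends of ZNF genes themselves and recruits SETDB1 there, had 440.0 and 562 under DMSO, 567 and 608 under decitabine, 457 and 613 under RG3039 and 538 and 665 under the combination and gave 0.27 ± 0.23 (adjusted p = 0.442). ZNF445, which protects imprints, gave -0.34 ± 0.18 (adjusted p = 0.205). The rest of the list had lower means with the combination than under DMSO, and none was called. The means under DMSO and the combination were 462 and 257 for ZNF382 and 345 and 199.6 for ZNF765. They were 194 and 144 for ZNF202, 96.7 and 58.8 for ZNF10 and 595 and 575 for ZNF649. The list's median with the combination was -0.34, and ZNF331, an imprinted gene, gave -0.55 ± 0.23 (adjusted p = 0.108).

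Of 8 activators tested, 7 of them members, ZNF410 alone was called with the combination, where 24.1% of all genes were called (12.7% lower). ZNF410, known for its control of CHD4, had 290.1 and 293 under DMSO, 301 and 193 under decitabine, 273 and 218 under RG3039 and 155 and 149 under the combination (-0.93 ± 0.28, adjusted p = 0.0361, limma). For ZNF410 the call was lost without either DMSO library or either combination library (adjusted p = 0.102 to 0.134), and 53.6% of its last-500-base words occur in other transcripts. ZNF143, which binds promoters and chromatin loop anchors, had 436 and 381 under DMSO, 302 and 266 under decitabine, 440.0 and 433 under RG3039 and 465 and 305 under the combination (-0.12 ± 0.24, adjusted p = 0.777). ZNF148 and ZNF281, related GC-box binding proteins, gave 0.33 ± 0.16 and -0.45 ± 0.18 (adjusted p = 0.185 and 0.101). ZNF76, the paralogue of ZNF143, had 167 and 95.4 under DMSO, 120.4 and 131 under decitabine, 15.5 and 350.2 under RG3039 and 27.8 and 11.2 under the combination, so that the RG3039 libraries alone spanned most of the range of the 8 libraries.

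The proteins through which KRAB members act were examined from a list of 29 names, 28 of which were tested (1 name is an older symbol of TASOR). With the combination 7 of the 28 were lower and 0 higher, with a median of -0.16. Of all genes tested 24.1% were called in that comparison (12.7% lower). Of the 10585 other genes with a mean of 100 or more, 32.5% were called, 2035 of them lower. With both directions pooled, the share of partners called lies near that of all genes tested and below that of those other genes. All 7 partner calls were lower in the fit of all 8 libraries, but the partner calls were not all lower without DMSO replicate 2. The difference in direction was not tested. The 7 were DNMT1, DAXX, UHRF1, HDAC2, SMARCAD1, ATRX and TASOR. With decitabine 1 was higher, CHD3, a remodeller recruited by TRIM28 (1.28 ± 0.23, adjusted p = 0.0264, limma), and with RG3039 none was called. The CHD3 call was kept in 2 of the 8 fits that leave out 1 library, those without an RG3039 library, with an adjusted p of up to 0.158 in the others. TRIM28, the co-repressor that KRAB binds, had 3374 and 4479.7 under DMSO, 3196 and 3066 under decitabine, 3015 and 3374 under RG3039 and 2479 and 2947 under the combination and missed the threshold with the combination (-0.52 ± 0.17, adjusted p = 0.0526). SETDB1 had 1339.7 and 1230.2 under DMSO, 1285 and 1137 under decitabine, 1189.6 and 1481 under RG3039 and 1037 and 1235 under the combination (-0.18 ± 0.18, adjusted p = 0.513). DAXX, the histone H3.3 chaperone, had 1993 and 2206 under DMSO, 1752 and 1759.5 under decitabine, 1723 and 1411 under RG3039 and 1242 and 1247 under the combination (-0.75 ± 0.16, adjusted p = 0.00768). DNMT1 alone kept its call without each library, and DAXX lost it without combination replicate 1 (adjusted p = 0.0528). The number of partners lower was 6 without DMSO replicate 1, 2 without DMSO replicate 2, 5 without either decitabine library, 4 without either RG3039 library, 1 without combination replicate 1 and 2 without combination replicate 2. CBX5, the HP1α protein, was lower with decitabine than with RG3039 (-0.94 ± 0.14, adjusted p = 0.00562) and higher with the combination than with decitabine (0.61 ± 0.14, adjusted p = 0.0297). The first of these calls was lost without RG3039 replicate 2 (adjusted p = 0.0523). The second was kept in 2 of 8 fits, those without a DMSO library, with an adjusted p of up to 0.184 in the others.

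Other zinc finger families at the same minimum level were counted in the same way. Of 35 ZBTB genes, decitabine called 1, RG3039 called 3 and the combination called 7 (5 higher and 2 lower). Of 14 ZSCAN and ZKSCAN genes it was 0, 1 and 3, and of 9 ZFP genes 0, 1 and 2. As shares called with the combination these are 20%, 21.4% and 22.2%, beside 14.9% of the ZNF genes and 32.5% of the other genes with a mean of 100 or more. The median log2 fold changes with the combination were 0.11, 0.05 and -0.13.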

How the data were processed

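The 8 libraries (4 groups of 2) were made with the QuantSeq 3′ FWD kit and read single-end, per the labels' protocols. The table deposited by the authors holds, for 60240 genes, a signal that behaves as a normalised read count. Per the submitters' processing notes, Salmon 1.2.1, STAR, featureCounts, DESeq2 and limma were used with hg38. No source links a tool to the table, so the unit rests on the values themselves. Low values (at most 20.5 steps) were whole multiples of 1 step per library, within 0.02, for 97.5% to 98.2% of genes with a single transcript but for 32.9% to 43.4% of those with 5 or more, so whole reads were not recovered for all genes and no count test was run. Totals were 27900000 to 32300000 per library, and dividing by the step gave an estimated depth of 20700000 to 40900000 reads.

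Genes with a mean of at least 10 were tested (17534). On log2(value + 1), 1 mean per group was fitted to all 8 libraries with limma 3.58.1 in R 4.3.3 (eBayes with trend, 4 residual and 5.51 prior degrees of freedom). Tests were two-sided, adjusted by Benjamini-Hochberg within each of 7 contrasts (6 pairwise and the interaction), and called at an adjusted p under 0.05. The median standard error was 0.32 in pairwise contrasts and 0.46 in the interaction. The fit was tested on simulated data.

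The members and lists were chosen with earlier results of these data known. The genes named are the called members without overlap of groups that have the 10 largest rises and 10 largest falls in each contrast with DMSO (4 and 4 in the others), the 5 of highest mean, the 3 on either side of the minimum, and the role lists. Coordinates are from GENCODE 29 (GRCh38). KRAB boxes and fingers were searched in open reading frames of GENCODE transcripts, since no protein table was used here, and promoters are from RefSeq (GRCh38.p14). Shared ends were counted as 50-base words in the last 500 bases of a transcript that also occur in another gene. Alternatives were a block on the replicate number, TMM and quantile scaling, a pseudocount of 5, other filters, eBayes without trend, fits of the compared groups alone and fits without each library. Python 3.11.15, pandas 2.3.3, numpy 2.4.6 and matplotlib 3.10.9 were used.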

Additional observations from a re-analysis of the deposited data

How the results depend on the processing

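No called fold change of a ZNF gene turned its direction under any alternative. Of the 117 calls of a member in a pairwise comparison, limma kept 117 with a minimum mean of 100, 116 with a pseudocount of 5, 116 with the replicate block, 114 with TMM scaling and 110 with quantile scaling. It kept 82 with no filter on low values, 72 with only the groups compared, 61 without the mean-variance trend, and between 53 (without combination replicate 1) and 79 (without decitabine replicate 2) with 1 library left out. The cause was not tested. The members called with decitabine against DMSO numbered 2 with no filter, 0 without the trend, 8 with the replicate block, 0 with only the groups compared and between 0 and 2 without each library. With RG3039 against DMSO they numbered 15 with no filter, 11 without the trend and 7 with only the groups compared, and between 8 and 21 without each library. With the combination against DMSO they ran from 23 to 54 without each library. For the combination against decitabine they numbered 12 with no filter and 7 without the trend, and between 3 and 17 without each library. For the combination against RG3039 they numbered 0 without the trend, 6 with the replicate block and 4 with only the groups compared, and between 0 and 2 without each library. For decitabine against RG3039 they numbered 9 without the trend and 8 with only the groups compared, and between 3 and 17 without each library. The interaction called 0 members in every fit, and it cannot be fitted with only the groups compared, since it uses all 4.

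The replicate numbers were not taken to pair the wells. Deviations of same-numbered libraries from their group means correlated, across genes, at 0.05 (DMSO and decitabine), 0.12 (DMSO and RG3039), 0.16 (DMSO and combination), 0.05 (decitabine and RG3039), -0.08 (decitabine and combination) and 0.10 (RG3039 and combination). With the replicate block the members called were 8, 24, 61, 27, 6, 21 and 0 in the order decitabine, RG3039 and combination against DMSO, combination against decitabine, combination against RG3039, decitabine against RG3039 and interaction. The median standard error in pairwise comparisons was 0.35 for members with a mean of 100 to 200 and 0.18 for those at 800 or more, and the part of depth in this was not tested.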

Other observations

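Below the minimum level, 123 further ZNF genes had a mean normalised count of 10 to 100 and were tested in the same limma fit. With decitabine against DMSO 1 was called higher, ZNF439, which had 5.06 and 3.10 under DMSO, 55.3 and 42.8 under decitabine, 15.9 and 15.3 under RG3039 and 43.6 and 48.4 under the combination. The log2 fold change was 3.32 ± 0.58 with decitabine (adjusted p = 0.0237) and 3.24 ± 0.58 with the combination (adjusted p = 0.00386). The 4 libraries with decitabine were above all others. With RG3039 1 was called higher (ZNF177) and 1 lower (ZNF804A), and with the combination 7 higher and 5 lower, or 9.76%, beside 11.1% of the other genes with a mean of 10 to 100. ZNF560 was listed at 0 in both DMSO and both RG3039 libraries, at 17.5 and 15.6 with decitabine and at 27.5 and 25.3 with the combination. ZNF177 was listed at 0 in both DMSO libraries, at 16.5 and 14.7 under decitabine, at 24.4 and 12.6 under RG3039 and at 81.9 and 10.51 under the combination, and no fold is given for either gene. ZNF726, a KRAB gene of chromosome 19, had 29.4 and 14.3 under DMSO, 103 and 62.9 under decitabine, 25.3 and 22.8 under RG3039 and 80.9 and 57.2 under the combination, so all 4 libraries with decitabine were again above the other 4. These genes lie outside the rule for named genes and were chosen after their values were seen.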
